A study of Caenorhabditis elegans with 2 samples.

Results

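The proteasome and its partner CDC-48 were examined through the promoters of the 41 C. elegans protein-coding genes whose symbols begin with rpn-, rpt-, pas-, pbs-, cdc-48., ufd- or npl-4. They were taken by symbol from the 19985 protein-coding genes of the WBcel235 annotation, which leaves 19944 other genes. The data are a ChIP-seq experiment on UNC-30 in whole L1 larvae of mixed sex, with 2 libraries (biological replicates 1 and 2) in 1 group. Both came from strain OP395, in which the unc-119(tm4063) mutation on chromosome III is combined with the integrated transgene wgIs395, and that transgene makes UNC-30 with GFP-FLAG at its C terminus. The deposit gives ranked lists of genomic regions: 30000 candidates per replicate, 30000 from both replicates together (the pooled list), and 125 that passed a threshold on reproducibility. The labels also point to a possible control experiment, which is not analysed here, so no groups were compared. Whether the replicates came from separate cultures is not said beyond the word biological.

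The 26S proteasome degrades proteins marked with ubiquitin. Its 20S core is a barrel of alpha rings (PAS proteins), which gate the entry, and beta rings (PBS proteins), which hold the proteolytic sites. The 19S cap that sits on it has a ring of ATPases (RPT proteins) that unfold the substrate, and non-ATPase subunits (RPN proteins) that bind the substrate and remove its ubiquitin. CDC-48, called p97 or VCP in mammals, is a AAA-type ATPase that pulls ubiquitinated proteins out of membranes and complexes, often with UFD-1 and NPL-4 as its substrate-binding cofactors. UNC-30 is a homeodomain transcription factor known for setting the identity of GABAergic D-type motor neurons, while the proteasome is used by every cell. In whole larvae, few cells with a strong site and many cells with a weak one cannot be told apart.

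Promoters were taken to reach 2000 bp upstream of a gene's 5′ end and 500 bp into the gene, and a region belongs to a promoter when its summit lies there. A gene's best region is the one with the highest signal value, the authors' own measure of region height, whose scale is not given in the labels or files. Ranks run from 1 at the highest signal in a list. All 125 thresholded regions are the top 125 of the pooled list, with signals from 39.2 to 113, while the pooled list reaches down to 10.7. Library depth is unknown, because the lists hold no read counts. Replicate 2's list has 10 mitochondrial regions, which replicate 1's and the pooled list lack. They are counted in that list's ranks, and 9 of them stand above the region of cdc-48.1.

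The strongest promoter regions among the members are shown first, since the result turns on them. Each line gives 151 bp centred on the pooled summit, 5′ to 3′ on the gene's strand, from the RefSeq WBcel235 sequence (ce11). The 5 summit windows are those of the members with a rank of 1000 or better whose sequence is shown here, and cdc-48.2 has the window at the same distance from its 5′ end as the summit of cdc-48.1. No window overlaps an annotated exon. Capitals mark the motifs searched for, which are described further on.
cdc-48.1, chrII:10563484-10563634, minus strand: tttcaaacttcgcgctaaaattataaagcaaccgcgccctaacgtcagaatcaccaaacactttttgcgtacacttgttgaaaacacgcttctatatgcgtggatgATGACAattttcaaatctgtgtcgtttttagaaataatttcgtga
rpn-11, chrII:4044594-4044744, minus strand: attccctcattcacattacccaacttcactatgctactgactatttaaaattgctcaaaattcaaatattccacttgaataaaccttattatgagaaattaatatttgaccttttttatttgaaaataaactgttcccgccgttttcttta
rpn-3, chrIII:8447114-8447264, plus strand: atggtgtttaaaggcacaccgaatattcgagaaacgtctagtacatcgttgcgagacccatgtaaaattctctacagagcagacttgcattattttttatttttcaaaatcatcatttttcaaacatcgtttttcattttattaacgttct
rpt-1, chrV:11982595-11982745, minus strand: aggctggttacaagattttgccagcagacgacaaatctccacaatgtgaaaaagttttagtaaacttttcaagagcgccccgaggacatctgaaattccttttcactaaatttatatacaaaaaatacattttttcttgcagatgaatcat
rpt-6, chrIII:12368767-12368917, plus strand: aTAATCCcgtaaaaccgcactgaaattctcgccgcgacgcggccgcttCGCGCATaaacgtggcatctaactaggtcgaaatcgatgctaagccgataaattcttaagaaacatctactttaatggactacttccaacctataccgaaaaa
cdc-48.2, chrII:8138269-8138419, plus strand: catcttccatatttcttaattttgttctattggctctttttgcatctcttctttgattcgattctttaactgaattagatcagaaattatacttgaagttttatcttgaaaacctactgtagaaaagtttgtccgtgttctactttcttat

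The cdc-48.1 promoter held the second-ranked region of the whole pooled list. Its signal was 109.9, and its −log10 q-value was 2.01, equal to the highest in the list. The region spans chrII:10563381-10563736 with the summit 152 bp upstream of the 5′ end. Replicate 1's list had its own region there at rank 1 (signal 72.4, 160 bp upstream), and replicate 2's list had one at rank 19 (signal 38.5, 151 bp upstream). The 3 summits thus lay within 9 bp of one another. The same region also fell in the promoter of C06A1.7 on the other strand, 1332 bp upstream of that gene's 5′ end.

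Its paralogs had no pooled region in the promoter. cdc-48.2, which encodes the other CDC-48 protein of the worm, had no pooled region in its promoter, and the nearest pooled summit lay 3459 bp upstream (rank 25860). Its promoter held a weak candidate in each replicate's list, at rank 26501 in replicate 1 (1029 bp upstream) and rank 14682 in replicate 2 (790 bp upstream). cdc-48.3 also had no pooled region in its promoter, although a pooled region of rank 3954 (signal 19.8) had its summit 652 bp downstream of the 5′ end, beyond the 500 bp limit of the promoter. Within its promoter it had candidates of rank 14200 in replicate 1 (1160 bp upstream) and 18494 in replicate 2 (1916 bp upstream), so the replicates' summits did not coincide at either gene.

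Among the ufd- and npl-4 genes, which encode cofactors of CDC-48, 2 of 5 had a pooled region, against 56.3% of other genes, and neither ranked in the top 1000. ufd-1, whose product binds ubiquitinated substrates together with NPL-4, had a pooled region of rank 4801 (signal 19.1, 280 bp upstream) inside the neighbouring gene F19B6.1. ufd-2, which encodes a ubiquitin-chain-extending ligase, had one of rank 15819 (signal 13.96, 1574 bp upstream) inside T05H10.8. A region at that place ranked 2084 in replicate 2's list, and replicate 1's list had none within 100 bp. npl-4.1, npl-4.2 and ufd-3 had no region in the promoter in any of the 3 lists.

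**Figure D1:**
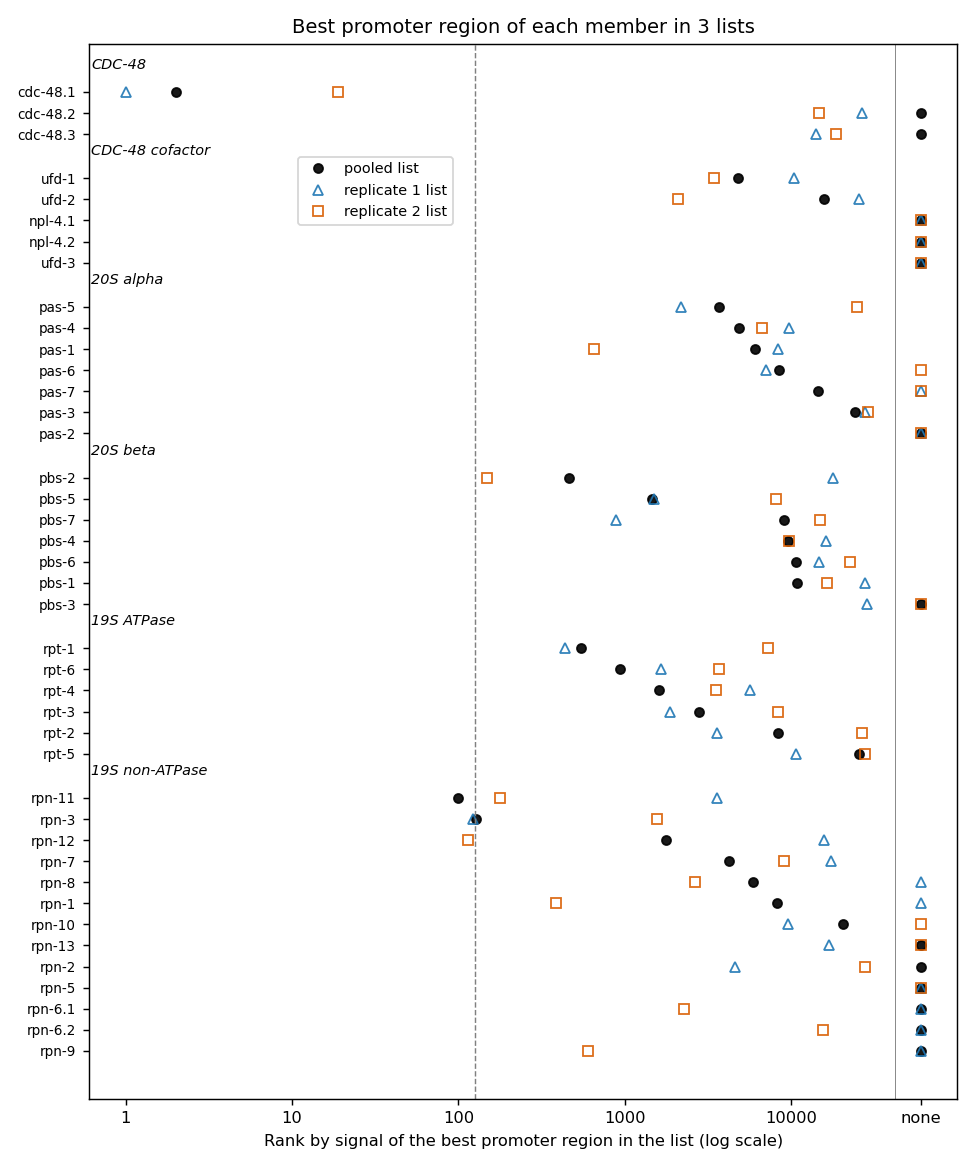
Rank of each member's best promoter region (log axis, 1 is the highest signal) in the pooled list (filled circles), replicate 1's list (triangles) and replicate 2's list (squares), with members grouped by role and "none" for no region in that list. The dashed line marks rank 125, the end of the thresholded list. cdc-48.1 stands at ranks 2, 1 and 19, and most other members have ranks that differ widely between the replicates.

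Among the 19S non-ATPase genes, rpn-11 and rpn-3 came next. RPN-11 is the deubiquitinase that cuts ubiquitin chains off the substrate at the cap. Its promoter held the other thresholded region of the members, at pooled rank 100 (signal 41.4, −log10 q 0.836, chrII:4044491-4044846), 123 bp upstream of the 5′ end and in no other gene's promoter. Replicate 2's list had a region there at rank 179 (143 bp upstream). Replicate 1's list had none within 100 bp of that summit, and its best candidate in the promoter lay 288 bp upstream at rank 3563. The summit of that candidate, at chrII:4044834, is inside the pooled region. By rank, the rpn-11 region therefore rests mainly on replicate 2. A gene on the same strand, K07D4.2, ends 225 bp upstream of rpn-11.

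rpn-3, which encodes a subunit of the lid of the cap, lay just outside the threshold. Its pooled region had rank 128, a −log10 q of 0.666 and a signal of 38.7, against a signal of 39.2 for the lowest thresholded region. The summit was 164 bp upstream of rpn-3 and 280 bp upstream of hsp-110, a chaperone gene on the other strand. In the replicates' own lists it ranked 123 (187 bp upstream) and 1573 (85 bp upstream). Replicate 1 gave it the stronger standing, the opposite of rpn-11.

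The other non-ATPase genes had weaker or 1-sided regions. rpn-12 had a region of pooled rank 1762 (signal 22.98), 218 bp downstream of its 5′ end, within the gene, and 613 bp upstream of rad-23, which encodes a shuttle protein for ubiquitinated substrates. That region ranked 114 in replicate 2's list, while replicate 1's list had only a candidate of rank 15769, 34 bp downstream. rpn-1, whose product is a scaffold of the cap, had pooled rank 8254 but rank 388 in replicate 2 and nothing in replicate 1. rpn-9 had rank 600 in replicate 2 (141 bp upstream) and nothing in replicate 1 or in the pooled list. rpn-7 (pooled rank 4235), rpn-8 (5896) and the ubiquitin receptor gene rpn-10 (20451) completed the 7 of 13 non-ATPase genes with a pooled region, a share near the 56.3% of other genes. rpn-2, rpn-5, rpn-6.1, rpn-6.2, rpn-9 and the other receptor gene rpn-13 had none. rpn-6.1, known in worms for raising proteasome activity when overexpressed, ranked 2273 in replicate 2 and was missing from replicate 1, and rpn-5 was missing from all 3 lists.

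All 6 ATPase genes of the cap had a pooled promoter region, against 56.3% of other genes, and 2 of them were within the top 1000, against 3.95%. Their signals were lower than those of cdc-48.1, rpn-11 and rpn-3. They ranked from 543 to 25653 with signals from 11.6 to 28.0. rpt-1 stood highest (rank 543, signal 28.0, −log10 q 0.112, 273 bp upstream, chrV:11982492-11982847) and shared its region with no other gene. Replicate 1 had it at rank 437 and replicate 2 at rank 18507.

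rpt-6 followed at rank 942 with a signal of 25.6 (−log10 q 0.0545), but the summit lay 1614 bp upstream, inside his-72, a gene for the histone variant H3.3. It was 208 bp downstream of the 5′ end of his-72 and also fell in the promoter of Y75B8A.33. Replicate 1's list matched it at rank 1897, and replicate 2's list had none within 100 bp. The region nearest to the start of rpt-6 itself, 88 bp upstream, had rank 1928. Of the rest, rpt-4 ranked 1597 (93 bp upstream of C23H3.5, against 1271 bp for rpt-4), rpt-3 2798, rpt-2 8369 and rpt-5 25653.

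Among the genes of the 20S core, 6 of 7 beta and 6 of 7 alpha subunit genes had a pooled region, against 56.3% of other genes. Within the top 5000 regions it was 2 of 7 in each class, against 14.1% of other genes, and pbs-2 was the only one within the top 1000. pbs-2, for a beta subunit with a trypsin-like site, had rank 460 (signal 28.9, −log10 q 0.144, 200 bp upstream). Its region lay in 3 other promoters too: eif-6 (466 bp upstream of its 5′ end), tba-2 (1685 bp) and gale-1 (1759 bp). Replicate 2 had it at rank 149. Replicate 1 had none within 100 bp of that summit, and its candidate 449 bp upstream ranked 17922. pbs-5, for the subunit with the chymotrypsin-like site, had rank 1449 (signal 23.7), with the summit 1118 bp upstream, inside K05C4.2.

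pbs-7 had pooled rank 9046 but rank 884 in replicate 1, and it lay inside tlf-1. pbs-4, pbs-6 and pbs-1 ranked 9522 to 10779. pbs-3 had no pooled region, and its 5′ end lies 23 bp from the end of ulp-2 on the same strand. The alpha subunit genes began lower, with pas-5 at rank 3702, 1891 bp upstream and within the gene ubc-25. pas-4 (4869), pas-1 (6085), pas-6 (8443), pas-7 (14454) and pas-3 (24135) followed. pas-2 was in none of the 3 lists.

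**Figure D2:**
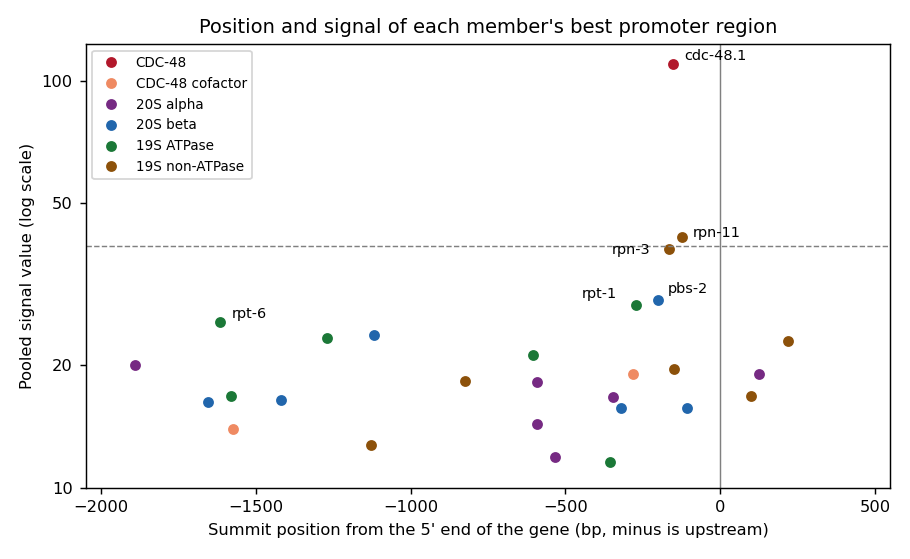
Signal value in the pooled list (log axis) against the position of the summit from the member's 5′ end in bp, 1 point for the best promoter region of each of the 28 members that have one, coloured by role. The dashed line is the lowest thresholded signal, 39.2. Of the 6 labelled members, with ranks of 1000 or better, 5 lie within 500 bp upstream and rpt-6 lies 1614 bp upstream.

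The share of members with a promoter region was above that of other genes at the upper depths of the pooled list. Within the 125 thresholded regions it was 2 of 41 members, or 4.88% (95% Wilson interval 1.35 to 16.1), against 0.662% of the 19944 other protein-coding genes. Within the 1000 highest regions it was 6 members, or 14.6% (6.88 to 28.4), against 3.95%. Within the 5000 highest it was 14 members, or 34.1% (21.6 to 49.5), against 14.1%. Over all 30000 candidates, which include background, 28 members had a region, or 68.3% (53.0 to 80.4), against 56.3% of other genes. The intervals cover counting error over genes only, and the list was not tested against the other genes.

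These shares depend on how regions are ranked and given to genes. Where each region went to the nearest 5′ end alone, the member share over 30000 regions was 41.5%, below the 43.9% of other genes, while within the top 1000 it was 12.2% against 2.55%. Ranked by −log10 q in place of signal, 14.6% of members had a region in the top 5000, close to the 13.5% of other genes. In the pooled list the median −log10 q is 1.38 at ranks 1 to 125 and 0.111 at ranks 126 to 1000. It is 0.0164 at ranks 1001 to 5000 and 0.0515 at ranks 5001 to 30000, so that beyond rank 1000 the order by −log10 q puts regions of lower signal first.

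Each replicate's own list gave a similar picture in number, with only part of the genes in common, among members as among other genes. In replicate 1's list the members with a region in the top 125, 1000, 5000 and 30000 numbered 2, 4, 11 and 30. The other genes' shares there were 0.562%, 3.83%, 14.2% and 56.3%. In replicate 2's list the members numbered 2, 7, 14 and 31, and the other genes' shares were 0.506%, 3.21%, 13.7% and 56.2%. At a depth of 1000, replicate 1's 4 members were cdc-48.1, pbs-7, rpn-3 and rpt-1. Replicate 2's 7 were cdc-48.1, pas-1, pbs-2, rpn-1, rpn-11, rpn-12 and rpn-9. cdc-48.1 was the only gene in both, which is 25% of replicate 1's members and 14.3% of replicate 2's. For other genes the overlap at that depth was 150 genes, or 19.6% of the 764 of replicate 1 and 23.4% of the 640 of replicate 2. At a depth of 125, 1 member was in both lists, 50% of each replicate's members, against 28.6% and 31.7% for other genes. At 5000 it was 4 members, or 36.4% of replicate 1's and 28.6% of replicate 2's, against 27.6% and 28.7%.

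**Figure D3:**
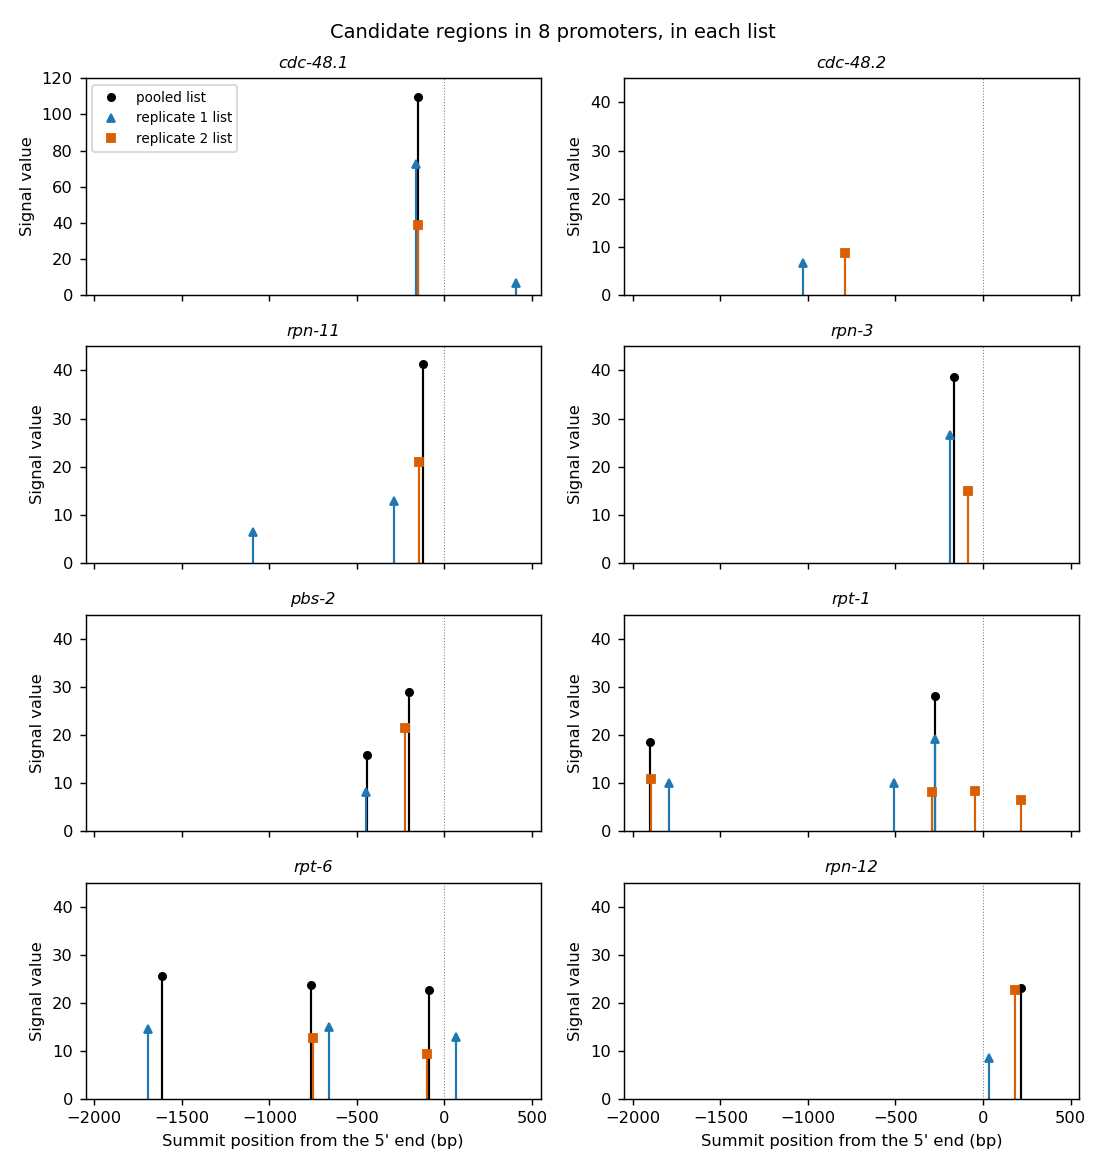
All candidate regions with a summit in the promoters of 8 members, as signal value against position from the 5′ end in bp, for the pooled list (circles), replicate 1 (triangles) and replicate 2 (squares). Signal scales are those of each list and the panel of cdc-48.1 has a longer axis. At cdc-48.1 the 3 lists place a summit 151 to 160 bp upstream. At rpn-11 and pbs-2 only replicate 2 has a summit within 100 bp of the highest pooled one, and cdc-48.2 has no pooled region.

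The best pooled region of 11 of the 28 members had a summit of both replicates within 100 bp. A further 7 matched replicate 1 alone (25%), 8 replicate 2 alone (28.6%), and 2 neither (7.14%, pas-6 and pas-7). For other genes with a pooled region these 3 shares were 31.9%, 30.7% and 18.4%. Among other genes with a pooled region, 19% matched both replicates, against 39.3% of the members, but the members' regions also rank higher. Over regions of rank 1000 or better, 3 of 6 members (50%) matched both, namely cdc-48.1, rpn-3 and rpt-1, against 69.3% of 788 other genes.

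The stronger members' regions lay close upstream of the gene start, and most member regions were shared with neighbours. Of the 6 members of rank 1000 or better, 5 had the summit 1 to 500 bp upstream (83.3%), against 42.3% of the other genes at that depth. Over all 28 the share was 39.3%, against 25.9%. A region that lay in another gene's promoter as well was found for 21 of the 28 members (75%), against 39.3% of other genes. For 13 of the 28 (46.4%) the summit was inside another protein-coding gene, against 27.3%. At rank 1000 or better both shares were near those of other genes. A shared region was found for 66.7% against 59.3%, and a summit inside another gene for 16.7% against 14.8%. At rank 5000 or better the shares were 64.3% against 45.8% and 35.7% against 22.5%. A same-strand gene ended within 500 bp upstream for 10 of the 41 members, rpn-11 among them, where a 5′ end may lie within an operon. The share of other genes with such a neighbour is not given here, so the count cannot show whether members differ from them. Operons were not looked up here.

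The ribosomal protein genes, another large set for a complex of every cell, had a higher share than the members in the pooled list. Of the members 14.6% and of the 78 rpl- and rps- genes 34.6% (interval 25 to 45.7) had a region within the top 1000. Within the top 5000 the shares were 34.1% and 44.9%, and over all candidates 68.3% and 70.5%. The intervals of both lists overlap at each depth, and the difference was not tested. In replicate 2's own list the shares were nearly equal at 1000 regions (17.1% of members and 16.7% of ribosomal protein genes) and at 5000 (34.1% and 33.3%). In replicate 1's own list the ribosomal protein genes had the higher share at 1000 regions (9.76% of members and 26.9%) and at 5000 (26.8% and 48.7%).

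**Figure D4:**
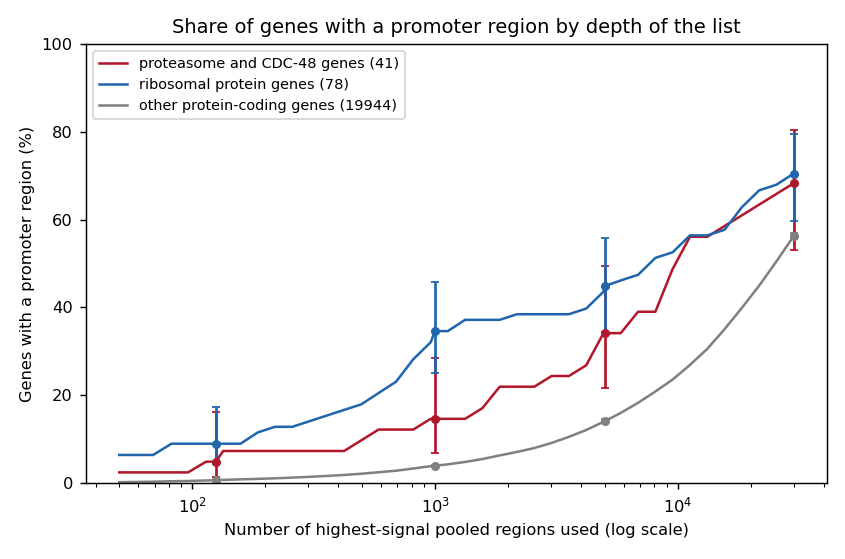
Share of genes in % with a promoter region among the highest-signal regions of the pooled list, against the number of regions used (log axis), for the 41 members, 78 ribosomal protein genes and 19944 other protein-coding genes. Points with bars are shares with 95% Wilson intervals at 125, 1000, 5000 and 30000 regions. The members lie between the ribosomal protein genes and the other genes at 125, 1000 and 5000 regions.

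Other genes of the ubiquitin and CDC-48 system were read in the same way, as a list of 45 genes with ligases, ubiquitin-conjugating enzymes, adaptors and regulators. Of these, 1 had a thresholded region (2.22%, interval 0.393 to 11.6), against 0.662% of genes outside the members. That gene was ubxn-2, whose product is a UBX-domain adaptor of CDC-48. Its region had pooled rank 41 (signal 59.8, 149 bp upstream, chrIV:2725790-2726145) and rank 55 in replicate 1, with none in replicate 2 within 100 bp. Within the top 1000 there were 5 (11.1%, interval 4.84 to 23.5), against 3.95%.

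The remaining 4 included ubc-7, a ubiquitin-conjugating enzyme of protein quality control (rank 154, 221 bp upstream), and cul-4, a cullin scaffold of ubiquitin ligases (rank 474, 166 bp upstream). Farther upstream lay the regions of otub-2 (rank 367, 1236 bp) and ubxn-3, another UBX-domain adaptor (rank 720, 1256 bp). ubc-7 matched both replicates, at ranks 24914 and 275. The otub-2 and cul-4 regions matched replicate 1 alone, at ranks 4548 and 298, while the ubxn-3 region matched neither. Within the top 5000 the count was 7 (15.6%), near the 14.1% of other genes. In the replicates' own lists it was 10 (22.2%, against 14.2%) in replicate 1 and 11 (24.4%, against 13.7%) in replicate 2. Within the top 125 it was 1 (2.22%, against 0.562%) in replicate 1 and 3 (6.67%, against 0.506%) in replicate 2. The pooled count of 7 and both of these counts of replicate 2 include rad-23. Its region (pooled rank 1762, replicate 2 rank 114) is the same as that of the member rpn-12. skn-1, whose product is a known activator of proteasome genes in C. elegans, had a region of rank 12392. ddi-1 and png-1, which process that factor, had none. For scale, unc-25 and ttr-39, genes of the D-type neurons, had pooled ranks of 1707 and 651 in the same list, and unc-47 and unc-30 had no promoter region. The unc-25 region matched replicate 1 at rank 468, and replicate 2's list had none within 100 bp. The ttr-39 region, also in the promoter of ttbk-5, ranked 330 in replicate 1 and 29061 in replicate 2.

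Short sequences were searched on both strands within 100 bp on either side of the summits of the 28 members' best regions. TAATCC, the core bound by homeodomains of UNC-30's type, was in 2 windows (7.14%), those of rpt-6 and pas-7, against 7.05% of the 9063 best regions of other genes and 7.18% of all 30000 pooled regions. None of the windows of cdc-48.1, rpn-11, rpn-3, pbs-2 and rpt-1 held it. In the sequence shown for rpt-6 it is at chrIII:12368768-12368773, within his-72. The next 4 were leading sequences of 6 letters in earlier results of these data. ATGCGC and CGCGCA, which overlap in the rpt-6 window, were in 2 and 3 of the 28 windows (7.14% and 10.7%), against 3.35% and 3.44% of other genes' regions and 2.79% and 2.65% of all regions. GACGCA was in none, against 3.97% of other genes' regions and 3.30% of all regions. ACGCAG was in 1 (3.57%), that of pas-6, against 3.89% and 3.35%.

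The core of the site of SKN-1, TGTCAT or TATCAT, was in 11 of the 28 windows (39.3%), against 19.9% of other genes' regions and 19.5% of all regions. cdc-48.1 had TGTCAT at chrII:10563523-10563528 on the plus strand, which is ATGACA in the sequence as shown. The other 10 were rpn-12, pbs-5, pas-5, ufd-1, pas-4, rpt-2, pbs-4, pbs-1, pas-3 and rpt-5, whose ranks run from 1449 to 25653. Of the 14 members of rank 5000 or better 6 held it (42.9%), against 19.3% of other genes' regions at that depth. A match is a string of letters in a window and was not tested as a site. The median G+C content was 34.1% in the members' windows, 32.3% in those of other genes and 31.8% in all pooled regions.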

How the data were processed

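Per the file lists deposited with the samples, the authors made a candidate list (peaks together with background) from each replicate’s alignments and 1 further file, a pooled candidate list, and a list thresholded by the irreproducible discovery rate. No label or file names the caller, its settings or the threshold (not given in the sources used here). The deposited lists give a signal value per region, which is the authors' own, and a −log10 q-value, read by the narrowPeak layout. The ce11 lists were used. All regions lie within the RefSeq WBcel235 chromosomes. The ce10 lists were not used.

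Genes came from the Ensembl release 115 annotation. Regions were ranked by signal and given to every gene whose promoter held the summit, with Python 3.11.15, numpy 2.4.6 and pandas 2.3.3. A match between lists meant summits within 100 bp. Assignment was checked on planted regions. Members were grouped by role. Those with a rank of 1000 or better, and all cdc-48, ufd and npl-4 genes, were to be named in full. Of the 48 symbols in the list of other ubiquitin genes, 45 were found. The members, lists and motifs were chosen with earlier results of these data known. Sequences of members on one chromosome are not shown here.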

Additional observations from a re-analysis of the deposited data

How the results depend on the processing

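No paired analysis was possible because there is 1 group. The alternatives covered the promoter window, assignment, 5′ ends, ranking, each replicate's list, operon-like neighbours, match distance and motif window. The share of members with a thresholded region stayed at 2.44% to 7.32% throughout, against 0.281% to 1.04% of other genes. At 1000 regions it stayed at 9.76% to 19.5%, against 1.8% to 6.61%. The highest value of both members and other genes came from the window reaching 5000 bp upstream. Leaving out a replicate gave 4.88% in both cases at 125 regions, 9.76% to 17.1% at 1000, 26.8% to 34.1% at 5000 and 73.2% to 75.6% at 30000. The other genes' shares there were 0.506% to 0.562%, 3.21% to 3.83%, 13.7% to 14.2% and 56.2% to 56.3%. At 125 regions the members were not all the same: cdc-48.1 and rpn-3 in replicate 1's list, and cdc-48.1 and rpn-12 in replicate 2's. In the pooled list they were cdc-48.1 and rpn-11. Without genes that have a same-strand gene ending within 500 bp upstream, 1 of 31 members had a thresholded region (3.23%, against 0.618% of other genes), since rpn-11 was left out.

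The window from 500 bp upstream to 100 bp downstream lowered the member share to 19.5% at 5000 regions (others 5.07%) and 31.7% at 30000 (others 21.4%). The window from 5000 bp upstream raised it to 80.5% at 30000, beside 78.1% of others. The nearest 5′ end alone gave 41.5% at 30000 (others 43.9%), and the order by −log10 q gave 14.6% at 5000 (others 13.5%). Matches in both replicates numbered 6 within 50 bp and 14 within 200 bp, against 11 as reported. When each replicate's top 5000 regions were used there were 2. Other genes were not counted at these settings. TGTCAT or TATCAT was in 60.7% of windows of 200 bp on either side, against 37.5% of other genes' regions. rpt-6 had rank 1928 in the narrow window and 8845 by −log10 q, and ufd-1 had 19245 by −log10 q. Depth cannot be judged, since the lists hold no read counts.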
